A study of Bos taurus with 3 samples.

Results

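PAM CXCL14 LUM fibroblasts are the cells of the newborn calf rumen that carried mRNA of COL3A1, a fibrillar collagen, together with at least 2 of the 5 genes PAM, CXCL14, LUM, FBLN1 and APOD, and that carried no MFAP5. They were 149 of the 26020 barcodes within the quality limits, with 5 cells in calf 1, 55 in calf 2 and 89 in calf 3. The animals were 3 newborn Holstein calves, sampled 1 day after birth. Each calf gave 1 droplet library from the ventral sac of the rumen, from which the outer muscle layers had been removed before enzymatic dissociation. All 3 calves were untreated and of the same stage, and adult libraries were not analysed here.

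The cells were chosen by measured values. A barcode was kept with 500 to 4000 detected genes, at most 50000 UMIs (unique molecular identifiers, each standing for 1 captured mRNA molecule) and at most 40% of its UMIs in the 13 mitochondrial coding genes. Barcodes with any UMI of PTPRC, a leukocyte gene, or PECAM1, an endothelial gene, were left out, as were those in which the basal keratins KRT5, KRT14 and KRT15 together reached 10 UMIs per 10000. Of the 328 remaining cells with at least 3 COL3A1 UMIs, 65 carried MFAP5, a component of elastin-associated microfibrils, and are called MFAP5-positive cells. A further 88 cells without MFAP5 had at least 2 UMIs of ACTA2, the actin of smooth muscle and contractile fibroblasts, and are called ACTA2-positive cells. The other 26 cells carried fewer than 2 of the 5 genes.

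Fibroblasts build and remodel the collagen, elastic and proteoglycan network that carries the rumen epithelium, and they send the secreted signals that pattern the overlying epithelium. PAM encodes the enzyme that amidates the end of neuropeptides and peptide hormones, and CXCL14 a chemokine. LUM encodes lumican, a proteoglycan that spaces collagen fibrils, FBLN1 encodes fibulin-1 of the basement membrane and elastic fibres, and APOD a lipid-binding apolipoprotein.

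Rumen libraries of calves 1, 2 and 3 held between 7529 and 12043 barcodes and between 82263092 and 106145091 UMIs. A barcode sequence shared with another calf's library was found 50 to 66 times per library, and 2 of the 149 fibroblasts carried such a sequence. The fibroblasts were shallow, with a median of 1906 UMIs (lowest 829, highest 4791), against medians of 2610 in MFAP5-positive cells, 3260 in ACTA2-positive cells and 7769 in epithelial cells. Their median share of mitochondrial UMIs was 6.81%, against 4.02% in MFAP5-positive and 4.92% in ACTA2-positive cells. The part of depth and of mitochondrial share in the differences below was not tested beyond the thinned counts given beside them.

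The fibroblasts were 0.489% ± 0.374 of the kept barcodes of a calf (SD, n = 3 calves). The share was 0.102% in calf 1 (95% exact binomial interval 0.0332 to 0.239), 0.516% in calf 2 (0.389 to 0.671) and 0.849% in calf 3 (0.683 to 1.04), so that none of the 3 intervals overlapped. These intervals cover counting error only. Among the cells with at least 3 COL3A1 UMIs the fibroblasts were 71.4%, 43.0% and 46.1% in calves 1, 2 and 3, and here the intervals overlapped (29.0 to 96.3, 34.3 to 52.0 and 38.9 to 53.4).

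Of the limits that were varied (COL3A1 UMIs, number of the 5 genes, mitochondrial share and keratins), the keratin limit moved the number most. The fibroblasts had a median of 4.76 keratin UMIs per 10000, and 72 of the 149 had at least 5. A further 64 cells with 10 to under 15 keratin UMIs per 10000 met every other part of the rule, with medians of 24.5 COL3A1 UMIs, 5 of the 5 genes and 17 LUM UMIs, close to the medians of 25, 5 and 15 of the 72 cells just inside the limit. Without the limit the number rose to 361 cells, with 10, 164 and 187 in calves 1, 2 and 3, and the MFAP5-positive cells to 131. At the limit on the 5 genes, 13 fibroblasts had exactly 2 of them and 20 cells missed by having 1. The limits on COL3A1, ACTA2 and MFAP5 UMIs cut where few cells lay. Only 3 fibroblasts had exactly 3 COL3A1 UMIs and 2 cells missed by having 2, while 3 fibroblasts had 1 ACTA2 UMI and 4 cells missed by having 2. Of the cells left out by MFAP5 alone, 59 had more than 1 MFAP5 UMI and 3 had 1.

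As a description of the rule itself, 107 of the 149 fibroblasts carried all 5 genes, 21 carried 4, 8 carried 3 and 13 carried 2. LUM was detected in 148 cells, FBLN1 in 138, PAM in 132, CXCL14 in 129 and APOD in 122. Levels are given per calf: the UMIs of a gene, added over the cells of a group, per 10000 UMIs of those cells. Each mRNA is counted at its 3′ end, so no scaling by length is needed. PAM stood at 16.7, 17.6 and 29.4 in calves 1, 2 and 3, against 0.73 and 1.08 in the MFAP5-positive cells of calves 2 and 3. CXCL14 stood at 217, 78.8 and 136 against 0.37 and 4.07, and APOD at 9.18, 17.2 and 16.7 against 0.73 and 0.83. These 3 genes set the fibroblasts apart from the MFAP5-positive cells in every calf. FBLN1 did not: it stood at 25.9, 21.8 and 27.7 in the fibroblasts and at 24.7 and 25.7 in the MFAP5-positive cells of calves 2 and 3. LUM lay between, at 48.4, 91.6 and 86.6 against 33.0 and 30.5. Every cell was also thinned at random to 1000 UMIs, which left out 3 fibroblasts. A CXCL14 UMI then remained in 86.3% of the fibroblasts and in 3.31% of the epithelial cells. Whether the epithelial UMIs came from those cells themselves was not tested. Without thinning the shares were 86.3% and 16.7%.

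**Figure D1:**
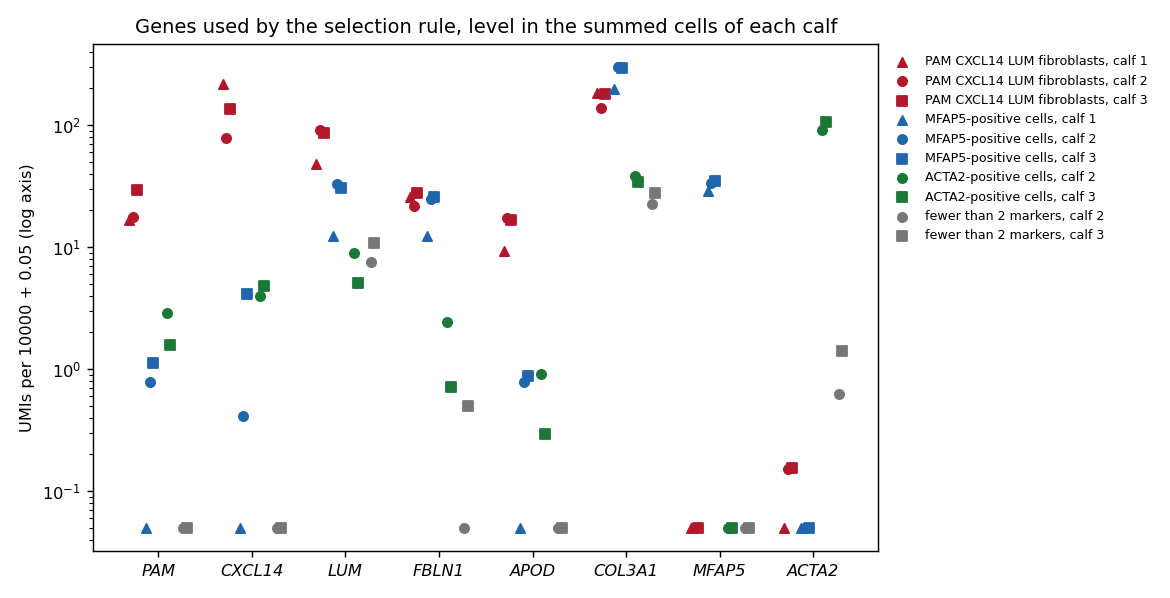
Level of the 5 genes of the rule and of COL3A1, MFAP5 and ACTA2 in UMIs per 10000, with 0.05 added, on a log axis. Each point is the sum of the cells of 1 calf (triangle calf 1, circle calf 2, square calf 3) in PAM CXCL14 LUM fibroblasts (red), MFAP5-positive cells (blue), ACTA2-positive cells (green) and cells with fewer than 2 of the 5 genes (grey). PAM, CXCL14 and APOD separate red from blue while FBLN1 does not; the rule chose the cells on these genes, so the plot is a description of the selection.

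The label of fibroblast was checked against genes that the rule did not use. DCN, decorin, which binds collagen and growth factors, stood at 93.4, 104 and 84.4 UMIs per 10000 in calves 1, 2 and 3, and COL1A1, the main chain of type I collagen, at 70.1, 46.5 and 65.1. MGP, matrix Gla protein, an inhibitor of calcification, stood at 188, 139 and 252. The lowest of these values was 46.5, and no value of the 3 genes in the epithelial cells of a calf exceeded 4.08. PDGFRA, the receptor that defines many mesenchymal fibroblasts, was found in 85 of the 149 cells. After thinning to 1000 UMIs its share was 42.5%, against 20.0% of MFAP5-positive, 3.41% of ACTA2-positive and 0.41% of epithelial cells. Other genes of the fibroblast identity list were unevenly detected. Without thinning, COL1A2 was found in 147 of the 149 cells, SPARC in 146, VIM in 139, DPT in 76, TCF21 in 67 and THY1 in 57. COL6A2 was found in 31, COL6A1 in 25, COL6A3 in 17 and PDGFRB in 9.

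Endothelial and immune markers were at or near 0, while smooth muscle and mural markers were not. Of 10 endothelial genes in the files, 6 had no UMI in any fibroblast, CDH5 and KDR among them, and the summed level of the list was 0 to 0.42 per 10000 against 51.2 to 61.7 in endothelial cells. Of 12 immune genes, 7 were at 0, CD3E and TYROBP among them, and the summed level was 0 to 1.63, against 330 to 406 in immune cells. Of 11 epithelial genes besides the keratins of the rule, KRT7 was at 0, and the summed level was 1.63 to 3.74 against 30.4 to 44.7 in epithelial cells. Of 10 Schwann and neural genes 6 were at 0, and of 7 mesothelial and interstitial genes 4 were at 0. Of 19 smooth muscle and mural genes, MYH11 and ACTG2 were at 0, and the summed level was 16.1 to 20.6, against 218 and 266 in ACTA2-positive cells and 5.68 and 7.06 in MFAP5-positive cells of calves 2 and 3. Within the fibroblasts the summed level was 13.1 to 19.2 in cells with CXCL14 and 30.6 and 49.0 in cells without it.

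The fibroblasts were compared with the MFAP5-positive cells, the other collagen-producing group of the same tissue. Collagen, collagen processing, elastic fibre, chemokine and adventitial genes were lower where they passed the test, apart from COL18A1 and COL4A5, while fibroblast transcription factors were higher more often than lower. Of 1648 genes tested, 158 were higher in the fibroblasts, 9.59% of those tested, and 155 were lower, 9.41%. The test was edgeR's quasi-likelihood test on the UMI sums of calves 2 and 3 with the calf as a block and Benjamini-Hochberg adjusted p under 0.05. Calf 1 had 5 and 2 cells in the groups compared and did not enter, so that every fold change below rests on 2 animals. DESeq2 called 82 genes, and the sums of cells thinned to 2000 UMIs gave 151. Without the keratin limit all 3 calves entered, and 131 genes were higher and 185 lower.

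The 10 genes with the largest positive difference held 9 without a UMI in the MFAP5-positive cells of calves 2 and 3. PENK, the precursor of the enkephalin opioid peptides, stood at 34.2, 6.78 and 11.8 UMIs per 10000 in calves 1, 2 and 3. It had no UMI in any of the 65 MFAP5-positive cells. The 2 groups did not overlap, and PENK was at least 58.7-fold higher in the fibroblasts of calves 2 and 3, measured against a floor of 3 counts over the summed MFAP5-positive cells. It was detected in 81 of the 149 fibroblasts, and in 44.5% after thinning to 1000 UMIs against 0.35% of epithelial cells. INHBB, a subunit of activin and inhibin, stood at 1.67, 1.52 and 1.00 and was likewise absent from the MFAP5-positive cells, a difference of at least 6.85-fold. NDNF, a secreted neurotrophic factor, stood at 5.84, 4.15 and 5.61 against 0 and 0.08 in calves 2 and 3. The fibroblasts of calves 2 and 3 held 148 NDNF UMIs and the MFAP5-positive cells 1, a ratio of 89.5 with a 95% counting interval of 15.8 to 3558.

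The others of these 10 genes had a range of functions. AQP1, a water channel, stood at 0.83, 4.25 and 6.40 in the fibroblasts of calves 1, 2 and 3 and was at 0 in the MFAP5-positive cells, at least 33.1-fold lower there. TRPA1, a cation channel that senses irritants and cold, was found in 28 fibroblasts and in none of the MFAP5-positive cells, at least 7.25-fold higher in the fibroblasts. ANPEP, an aminopeptidase of the cell surface, was found in 37 fibroblasts, TMEM176A, a membrane protein, in 54 and LBH, a transcription cofactor, in 35, with no UMI in the MFAP5-positive cells of any calf. Their lower bounds were 9.88-fold, 23.8-fold and 9.07-fold. PGA5, annotated as a pepsinogen, was found in 23 fibroblasts and was at least 7.46-fold higher. Of these 9 genes without a UMI in the MFAP5-positive cells of calves 2 and 3, HIGD1B was the exception in its distribution, since all of its 106 UMIs came from 10 fibroblasts without CXCL14. DESeq2 called 1 of the 10 genes with the largest positive difference, and without the keratin limit 6 of the 10 entered the test and all 6 passed it.

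BMP4, a bone morphogenetic protein that signals from mesenchyme to epithelium, stood at 3.34, 7.08 and 9.81 UMIs per 10000 in the fibroblasts of calves 1, 2 and 3 and at 0.37 and 0.83 in the MFAP5-positive cells of calves 2 and 3. The groups did not overlap, and BMP4 was higher by 3.69 ± 0.47 on the log2 scale (SE derived from the edgeR test, n = 2 calves, edgeR adjusted p = 2.8e-13). Its relative BMP2 stood at 0, 1.42 and 1.42 against 0 and 0.08, with 41 UMIs against 1 in calves 2 and 3. ID1, a transcriptional inhibitor induced by BMP signals, stood at 20.9, 21.5 and 11.8 against 0.55 and 1.41 and was higher by 3.72 ± 0.38 (edgeR adjusted p = 1.29e-19), and ID3 was higher by 2.01 ± 0.41 (edgeR adjusted p = 1.8e-05). Of 10 tested genes of the BMP and TGF-beta list 4 were higher and TGFB3, a transforming growth factor, was lower, with 2 UMIs against 17. The median log2 difference of the list was 0.58, beside 0.07 over all genes tested.

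Transcription factors of gut and mesenchymal fibroblasts were higher more often than lower, at 8 against 1 of 14 tested and a median log2 difference of 1.37. FOXF1, which patterns the gut mesenchyme, stood at 3.34, 2.22 and 1.89 in calves 1, 2 and 3 against 0.55 and 0.33 in the MFAP5-positive cells of calves 2 and 3, higher by 2.24 ± 0.55 (edgeR adjusted p = 4.57e-04). Its paralog FOXF2 had 51 UMIs in the fibroblasts of calves 2 and 3 and 3 in the MFAP5-positive cells, a ratio of 10.3 with a counting interval of 3.32 to 51.5. TWIST2, a basic helix-loop-helix factor of mesenchyme, stood at 0.83, 6.58 and 5.14 against 0.73 and 0.42, higher by 3.36 ± 0.50 (edgeR adjusted p = 1.05e-09). TBX3, a T-box factor, stood at 5.00, 3.24 and 2.73 against 0 and 0.25. OSR1 was the member that went the other way, with no UMI in any fibroblast and 1.10 and 1.50 per 10000 in the MFAP5-positive cells of calves 2 and 3, at least 13.2-fold lower. TCF21 and TWIST1 did not pass the test, with log2 differences of 0.10 ± 0.39 and 0.52 ± 0.41.

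Genes that handle retinoic acid and lipids differed in both directions, with 4 of 9 tested higher and 2 lower and a median log2 difference of 1.63. APOE, a lipid-transport apolipoprotein, stood at 17.5, 21.3 and 16.1 against 0.92 and 0.50 and was higher by 4.74 ± 0.40 (edgeR adjusted p = 9.9e-28). CYP26B1, which degrades retinoic acid, stood at 0, 2.23 and 8.92 against 0 and 0.75, higher by 3.73 ± 0.54 (edgeR adjusted p = 2.41e-10), with all 9 UMIs of the MFAP5-positive cells in 1 cell. ALDH1A1, which makes retinoic acid, stood at 9.18, 3.24 and 18.2 against 2.02 and 1.16, higher by 2.72 ± 0.43 (edgeR adjusted p = 3.94e-08). Both genes were lower in the fibroblasts of calf 2 than in those of calf 3, by more than the distance between the groups in calf 2 for ALDH1A1. LPL, lipoprotein lipase, had 2 UMIs in the fibroblasts of calves 2 and 3 and 59 in the MFAP5-positive cells, and RBP4, the retinol carrier, was lower by 1.51 on the log2 scale (SE 0.33, edgeR adjusted p = 5.61e-05).

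Fibrillar matrix genes were lower or did not differ. COL1A1 stood at 46.5 and 65.1 UMIs per 10000 in the fibroblasts of calves 2 and 3 and at 268 and 214 in the MFAP5-positive cells, and fell by 2.16 on the log2 scale (SE 0.26, edgeR adjusted p = 1.26e-14). COL1A2, the second chain of type I collagen, fell by 2.29 (SE 0.26, edgeR adjusted p = 4.21e-16). Both belong to the fibroblast identity list, of which 1 of 11 tested genes was higher and 6 were lower. The median log2 difference of that list was -1.08. Of 5 tested fibrillar collagens 3 were lower and none higher, and of 12 genes of collagen processing 6 were lower and none higher, such as PCOLCE, which helps cut the procollagen end, and P4HA2, a prolyl hydroxylase, at log2 differences of -1.57 ± 0.31 and -2.40 ± 0.42. The median log2 differences of these lists were -0.95 and -0.94. FN1, fibronectin, had 32 UMIs in the fibroblasts of calves 2 and 3 and 224 in the MFAP5-positive cells, and fell by 3.78 (SE 0.39, edgeR adjusted p = 9.03e-19).

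Elastic fibre genes also stood lower. Of 14 tested, 6 were lower and none was higher, with a median log2 difference of -0.66. ELN, elastin, stood at 13.1 and 11.5 in the fibroblasts of calves 2 and 3 against 45.1 and 32.9 in the MFAP5-positive cells, and fell by 1.69 (SE 0.24, edgeR adjusted p = 5.86e-11). FBN1, fibrillin-1 of microfibrils, fell by 1.53 (SE 0.31, edgeR adjusted p = 1.5e-05), while FBN2, fibrillin-2, had a log2 difference of 0.41 ± 0.33 that did not pass. Since the comparison group was gated on MFAP5, itself a microfibril gene, the count of this list is given as a description of the 2 groups.

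Among the small leucine-rich proteoglycans 5 of 8 tested were lower and ASPN, asporin, was higher. ASPN stood at 9.41 and 11.6 against 1.83 and 5.65 in calves 2 and 3, higher by 1.46 ± 0.34 (edgeR adjusted p = 2.06e-04). FMOD, fibromodulin, OGN, osteoglycin, and BGN, biglycan, fell by 3.05, 1.94 and 2.25. DCN did not pass, with a log2 difference of -0.05 ± 0.24. Of 17 basement membrane and matricellular genes tested, 6 were higher and 4 lower. CCN1, a matricellular protein that binds integrins, stood at 51.7, 14.5 and 40.5 in calves 1, 2 and 3 against 2.38 and 8.72 in calves 2 and 3, higher by 2.30 ± 0.28 (edgeR adjusted p = 2.55e-14). SPARCL1, a collagen-binding matricellular protein, was higher by 2.58 ± 0.29, and POSTN, periostin, by 3.18 ± 0.54. LAMA2 and LAMB2, laminin chains, were higher by 2.05 ± 0.50 and 1.56 ± 0.45, and LAMB2 lost its call without the keratin limit (edgeR adjusted p = 0.129).

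The tested chemokine genes and most tested complement and adventitial genes were lower in the fibroblasts than in the MFAP5-positive cells. CXCL14, the chemokine of the rule, stood higher in the fibroblasts and was not tested. CCL11, the eosinophil chemokine eotaxin, had no UMI in any of the 149 fibroblasts and stood at 11.7 and 24.3 UMIs per 10000 in the MFAP5-positive cells of calves 2 and 3, so that it was at least 196-fold lower in the fibroblasts. Its 356 UMIs came from 24 of 65 MFAP5-positive cells, with 69 in the cell that held most. CXCL12, a chemokine of stromal niches, stood at 2.63 and 3.25 against 34.8 and 18.6 and was lower in both calves (edgeR adjusted p = 2.29e-23). CCL2, which draws monocytes, also fell, so that all 3 tested members of the list were lower.

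Of 9 tested complement genes 6 were lower. C7, a component of the membrane attack complex, stood at 1.42 and 0.47 against 2.56 and 3.40 in calves 2 and 3 and fell by 1.97 (SE 0.41, edgeR adjusted p = 2.49e-05), a call lost in thinned cells (edgeR adjusted p = 0.329). CFD, complement factor D, the protease that starts the alternative pathway, was the member that went up: it stood at 23.3, 18.5 and 33.6 in the fibroblasts of calves 1, 2 and 3 against 0.37 and 3.65, higher by 3.65 ± 0.32 (edgeR adjusted p = 5.86e-26). Of the 7 tested adventitial fibroblast genes 6 were lower, with a median log2 difference of -2.94. The 2 groups were split on MFAP5, and how far these genes follow MFAP5 was not tested. The count of the adventitial list is therefore given as a description of the 2 groups. CLEC3B, tetranectin, fell by 2.94, and PI16, a peptidase inhibitor of adventitial fibroblasts, fell by 3.52, with its 5 UMIs in 1 fibroblast. RSPO3, an R-spondin that amplifies WNT signals, stood at 0.20 and 0.26 against 6.96 and 4.32 and fell by 4.43 (SE 0.52, edgeR adjusted p = 1.93e-15).

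Imprinted growth genes stood lower in 5 of 6 tested, with a median log2 difference of -1.83. DLK1, which holds back adipocyte and other differentiation, stood at 0, 0.20 and 2.41 in the fibroblasts of calves 1, 2 and 3 and at 47.4, 20.0 and 35.6 in the MFAP5-positive cells. It fell by 4.48 (SE 0.32, edgeR adjusted p = 7.29e-37), and its 48 UMIs in fibroblasts came from 5 cells, 4 of them without CXCL14. MEST and IGF2, a fetal growth factor, fell by 4.05 and 1.01. The remaining genes with the largest negative differences were FGL2, NRK, CREB5, CPZ, NFIB and IL18. Of these, CPZ, a carboxypeptidase, stood at 0 and 0.26 against 8.43 and 3.32, and CREB5, a transcription factor, at 0.10 and 0.10 against 2.93 and 2.82. DESeq2 called 6 of the 10 genes with the largest negative difference, and without the keratin limit 8 entered the test and all 8 passed it.

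**Figure D2:**
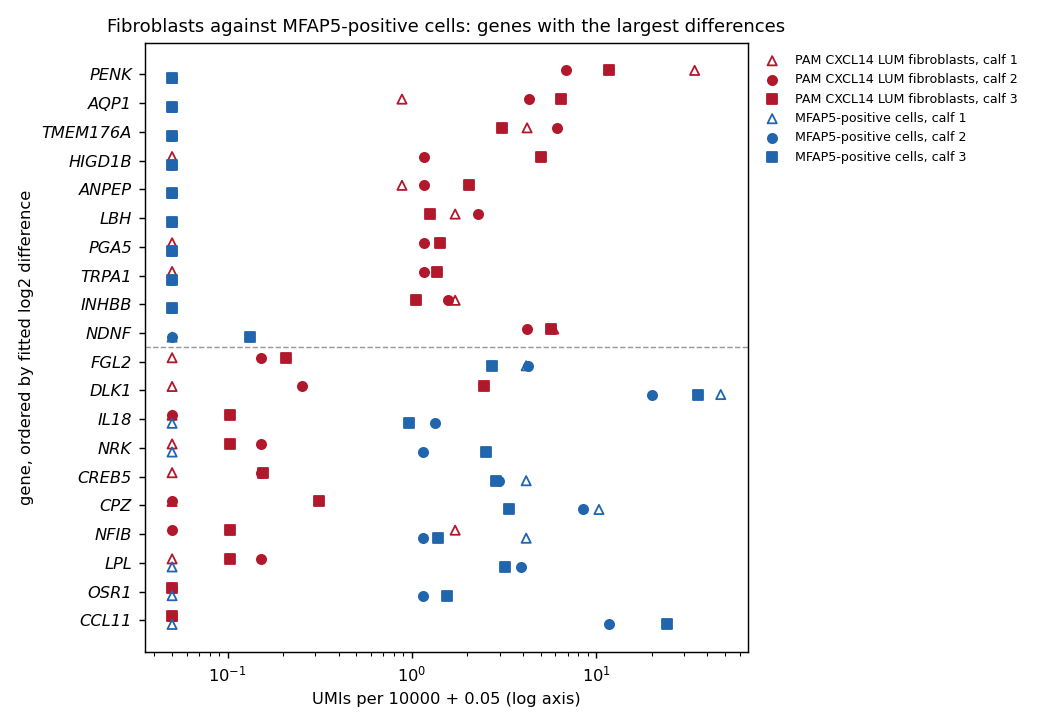
Level in UMIs per 10000, with 0.05 added, on a log axis, of the 10 genes with the largest positive (above the dashed line) and the 10 with the largest negative log2 difference between PAM CXCL14 LUM fibroblasts (red) and MFAP5-positive cells (blue). Each point is the sum of the cells of 1 calf (open triangle calf 1, which did not enter the test, circle calf 2, square calf 3); 9 of the upper 10 genes have no blue UMI in calves 2 and 3, and CCL11 and OSR1 have no red UMI.

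Of 18 tested genes of the immediate-early and heat-shock list, 3 were higher and 1 was lower, beside 9.59% and 9.41% over all genes, and the median log2 difference was 0.01. HSPA1A, an inducible heat-shock protein, stood at 4.17, 31.5 and 36.4 in the fibroblasts of calves 1, 2 and 3 and at 3.66 and 7.14 in the MFAP5-positive cells of calves 2 and 3, higher by 2.60 ± 0.27 (edgeR adjusted p = 1.31e-19). HSPB1 and DNAJB1 were also higher and IER2 lower, and the call of IER2 was lost without the keratin limit (edgeR adjusted p = 0.444). The summed level of that list was 142, 130 and 158 in the fibroblasts and 98.9, 66.5 and 142 in the MFAP5-positive cells of calves 1, 2 and 3. Its part in the other differences was not tested.

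The fibroblasts were next set against the ACTA2-positive cells, which carry contractile genes. Calf 1 had none of these, so calves 2 and 3 entered. Of 2466 genes tested, 302 were higher in the fibroblasts, 12.2%, and 307 were lower, 12.4%. DESeq2 called 147 genes, and the sums of cells thinned to 2000 UMIs gave 276.

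Genes of the contractile apparatus were lower or absent. MYH11, smooth muscle myosin, and ACTG2, enteric smooth muscle actin, had no UMI in any of the 149 fibroblasts and stood at 18.4 and 29.7 and at 8.92 and 20.1 UMIs per 10000 in the ACTA2-positive cells of calves 2 and 3, at least 234-fold and 142-fold lower in the fibroblasts. CNN1, calponin, had 1 UMI in the fibroblasts and 505 in the ACTA2-positive cells. TPM2, a tropomyosin, stood at 1.11 and 1.05 against 55.7 and 62.4 and fell by 5.76 (SE 0.34, edgeR adjusted p = 1.17e-57), and DES, desmin, fell by 5.53 (SE 0.43, edgeR adjusted p = 6.45e-35). Of 15 tested smooth muscle and mural genes 14 were lower, with a median log2 difference of -4.14, beside 0.03 over all genes tested. The 2 groups were split on ACTA2, itself a smooth muscle gene. The count of this list is therefore given as a description of the 2 groups. RGS5, a gene of vessel-wall mural cells, did not pass, with a log2 difference of -0.81 ± 0.41. CAV3, KCNMB1, NIBAN1 and NDRG4 also had no UMI in any fibroblast, and SORBS2 had 1. CENPF, a gene of dividing cells, had 1 UMI in the fibroblasts against 95, of which 54 lay in 1 of 4 ACTA2-positive cells.

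Fibroblast genes were higher than in the ACTA2-positive cells, with 9 of 10 tested identity genes up, VIM down and a median log2 difference of 1.85. PDGFRA stood at 3.94 and 7.14 in the fibroblasts of calves 2 and 3 against 0.26 and 0.06, higher by 5.07 ± 0.47 (edgeR adjusted p = 7.34e-25). DCN was higher by 3.89 ± 0.29 (edgeR adjusted p = 1.19e-37), and COL1A1 by 2.35 ± 0.27 (edgeR adjusted p = 1.31e-16). For COL1A1 the fibroblasts therefore stood between the other 2 collagen-producing groups, with 46.5 and 65.1 per 10000 against 268 and 214 in MFAP5-positive and 12.4 and 9.58 in ACTA2-positive cells. VIM, vimentin, stood at 37.9 and 20.1 against 66.8 and 62.4 and fell by 1.21 (SE 0.26, edgeR adjusted p = 2.82e-05). Without the keratin limit 5 of 12 tested identity genes were higher than in the ACTA2-positive cells and 1 was lower.

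Elastic fibre genes were higher in 10 of 12 tested, with ELN not passing at a log2 difference of -0.33 ± 0.25. EFEMP1, fibulin-3, was higher by 3.57 ± 0.39 and FBN2 by 2.78 ± 0.33. Of 19 basement membrane and matricellular genes 11 were higher and 4 lower: THBS1, a thrombospondin, and CCN2, a matricellular relative of CCN1, fell by 2.09 and 2.57, while THBS2, found in 22 fibroblasts and no ACTA2-positive cell, was at least 8.74-fold higher. Type IV collagen COL4A1 of basement membranes fell by 0.98 (SE 0.27, edgeR adjusted p = 0.00177).

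Of 11 tested BMP and TGF-beta genes 8 were higher and none lower. BMP3, a member of the family that opposes other BMPs, had 65 UMIs in the fibroblasts of calves 2 and 3 and none in the ACTA2-positive cells, at least 23.7-fold higher, and BMP4 was higher by 3.27 ± 0.34 (edgeR adjusted p = 1.88e-19). NOTUM, which inactivates WNT proteins, had 60 UMIs against 1, a ratio of 65.6 with a counting interval of 11.3 to 2632. SERPINI1, neuroserpin, a protease inhibitor, had 200 against 1, and PENK 291 against 2. GLP1R, the receptor of glucagon-like peptide 1, was found in 27 fibroblasts and in no ACTA2-positive or MFAP5-positive cell, and was at least 10.2-fold higher than in the ACTA2-positive cells. INHBB and PGA5 likewise had no UMI in the ACTA2-positive cells. SAA3, an acute-phase protein, had 67 UMIs against 1, of which 53 lay in 1 of 3 fibroblasts. DESeq2 called 8 of the 10 genes with the largest positive and 5 of the 10 with the largest negative difference, and all 20 passed the test without the keratin limit.

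**Figure D3:**
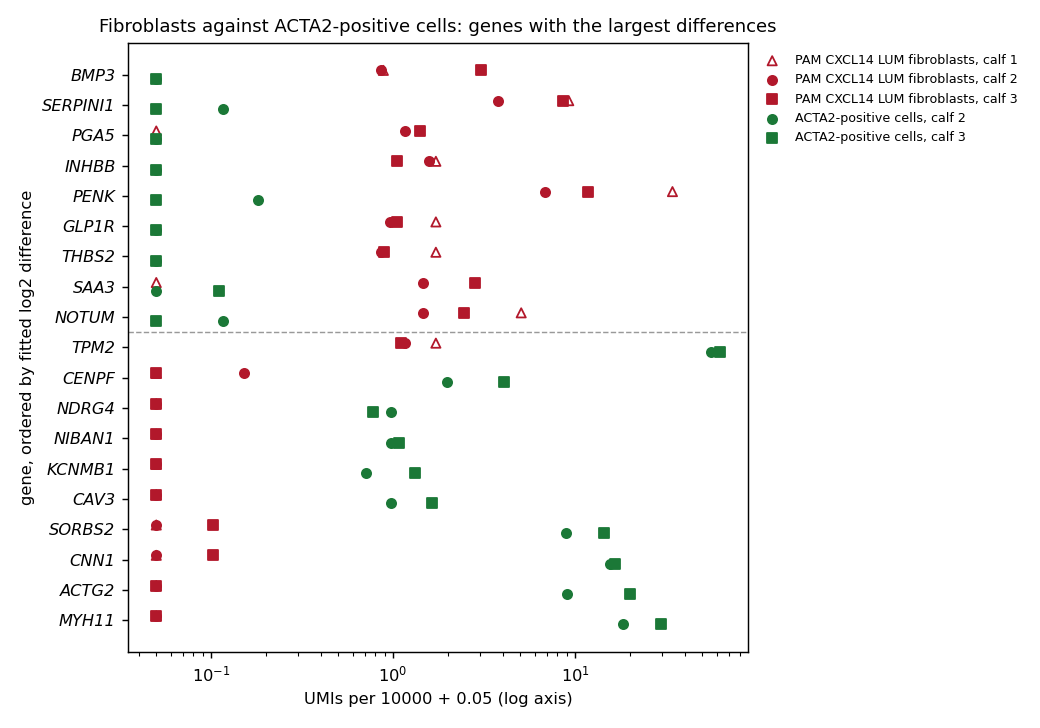
Level in UMIs per 10000, with 0.05 added, on a log axis, of 9 of the 10 genes with the largest positive (above the dashed line) and the 10 with the largest negative log2 difference between PAM CXCL14 LUM fibroblasts (red) and ACTA2-positive cells (green). Each point is the sum of the cells of 1 calf (open triangle calf 1, circle calf 2, square calf 3); MYH11, ACTG2, CAV3, KCNMB1, NIBAN1 and NDRG4 have no red UMI.

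Both comparisons use the same fibroblast sums and are not independent, so the values are given side by side. Of 1538 genes tested in both, 89 were higher in the fibroblasts in each and 16 were lower in each. The 10 of these 89 with the highest level in the fibroblasts were HSPA1A, CCN1, CFD, ANXA1, ID1, CD9, COLEC12, FTL, ASPN and BOLA. COLEC12, a scavenger receptor, stood at 15.9, 10.7 and 16.3 in the fibroblasts of calves 1, 2 and 3, at 2.75 and 2.91 in the MFAP5-positive and at 0.86 and 0.55 in the ACTA2-positive cells of calves 2 and 3. It was detected in 119 of the 149 fibroblasts, and no value of either comparison group reached the lowest of the fibroblasts. CD9, a tetraspanin, stood at 9.18, 18.2 and 12.9 against 1.47 and 2.33 and against 8.46 and 6.06, and ANXA1, an anti-inflammatory annexin, at 26.7, 16.0 and 19.3 against 5.86 and 7.81 and against 9.05 and 9.94. BOLA and CCN1 spread widely between calves, BOLA from 2.12 in calf 2 to 17.7 in calf 3 and CCN1 from 14.5 to 40.5. FTL, ferritin light chain, differed least, with log2 differences of 0.85 ± 0.29 and 0.74 ± 0.26, and it was found in 47.0% of thinned epithelial cells as well.

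**Figure D4:**
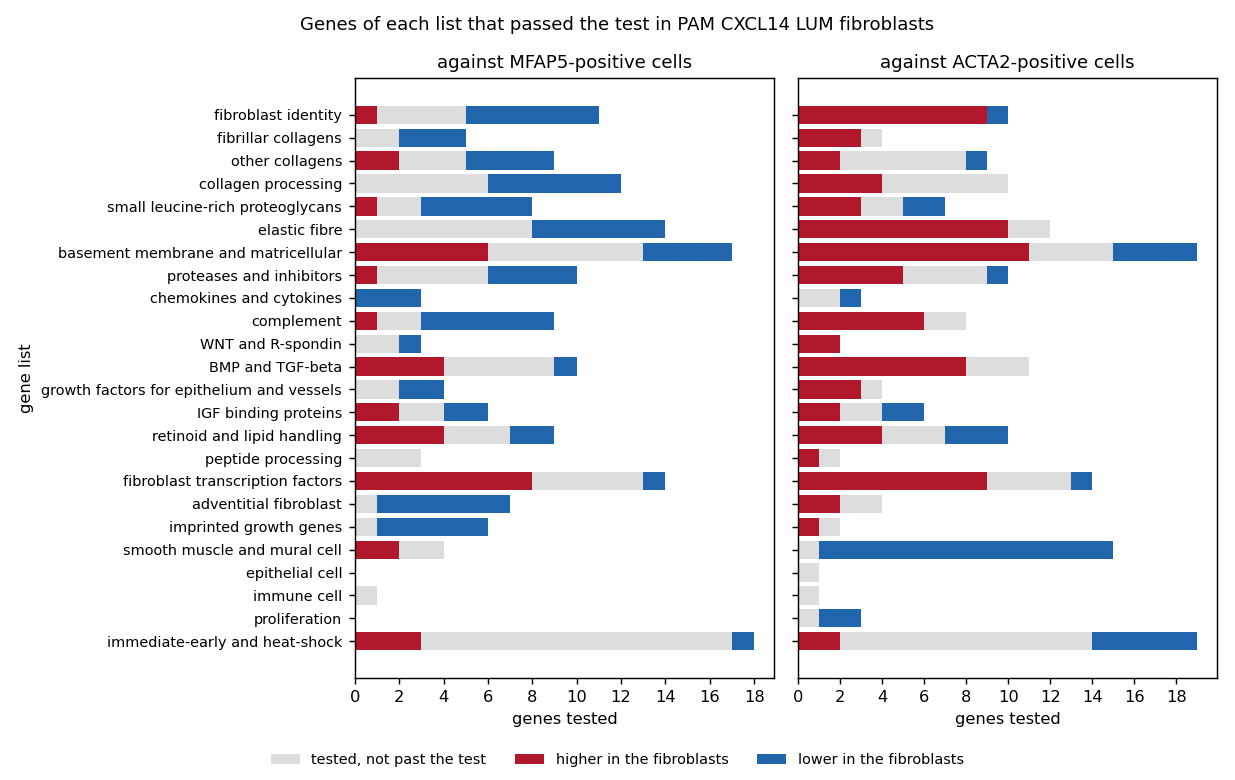
Number of tested genes in each list, with those higher (red) and lower (blue) in PAM CXCL14 LUM fibroblasts at edgeR adjusted p under 0.05 and those that did not pass (grey), against MFAP5-positive cells (left) and ACTA2-positive cells (right). Collagen processing and elastic fibre genes hold no red against MFAP5-positive cells, where 6 and 6 are blue, and 4 and 10 red against ACTA2-positive cells; lists share some genes.

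Peptide processing, the field of PAM itself, gave few testable genes. Of the 14 genes of that list only 3 could be tested against the MFAP5-positive cells, and CPE, ADM and CPXM1 did not pass, with log2 differences of 0.48 ± 0.41, -0.92 ± 0.46 and -0.41 ± 0.45. Against the ACTA2-positive cells CPXM1, with 33 UMIs against 3 in calves 2 and 3, was higher, a call lost without the keratin limit (edgeR adjusted p = 0.262), and CPE did not pass at -0.66 ± 0.33. CPE, carboxypeptidase E, trims peptide precursors before PAM acts, and its level in the fibroblasts was 0.83, 1.72 and 2.05 per 10000 in calves 1, 2 and 3.

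The fibroblasts were also split by CXCL14, 1 of the 5 genes of the rule. Cells without CXCL14 had therefore entered through at least 2 of the other genes. Of the 149 cells, 129 carried at least 1 CXCL14 UMI and 20 carried none, 8 in calf 2 and 12 in calf 3. The difference between the 2 sets in CXCL14 itself comes from the split and is no result. The CXCL14-positive cells were shallower, with a median of 1827 UMIs against 2430.5, and had a median mitochondrial share of 7.0% against 3.46%; the part of these in the differences was not tested. Of 883 other genes tested across calves 2 and 3, 61 were higher in the CXCL14-positive cells, 6.91%, and 46 were lower, 5.21%. These counts rest on 20 cells on 1 side, and they depended on the method: DESeq2 called 2 genes, the fit without the keratin limit 53 and that without the calf as a block 19. With at least 3 of the 5 genes required, 1 of 660 genes tested was called.

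Over all genes, the CXCL14-positive cells held 251424 of the 301424 UMIs of the fibroblasts. Beside that, they held 181 of 183 PDGFRA UMIs, 211 of 211 SERPINI1 UMIs and 152 of 155 NDNF UMIs. PDGFRA was detected in 84 of 129 CXCL14-positive and in 1 of 20 CXCL14-negative cells, with 173 UMIs against 2 in calves 2 and 3, a ratio of 18.1 with a counting interval of 4.93 to 150. SERPINI1 was found in 78 CXCL14-positive cells and in no CXCL14-negative cell, at least 13.9-fold higher, and AQP1 in 59 and none, at least 11.4-fold higher. CCN1 stood at 16.7 and 48.7 UMIs per 10000 in the CXCL14-positive cells of calves 2 and 3 and at 3.54 and 1.21 in the CXCL14-negative cells, higher by 4.25 ± 0.49 (edgeR adjusted p = 2.77e-07). TWIST2 was higher by 2.98 ± 0.53 (edgeR adjusted p = 1.33e-06). Of the 10 genes with the largest difference in this direction, DESeq2 called 1, and 5 kept their call without the keratin limit. AQP1 lost it there, at a log2 difference of 2.75 (edgeR adjusted p = 0.12), as did ALDH1A1, PCBD1, DHRS3 and CNTFR. ALDH1A1 had 377 UMIs against 2. PCBD1, ZNHIT6, DHRS3, PTK7 and CNTFR completed the 10 largest differences in this direction, each with at most 3 UMIs in the CXCL14-negative cells.

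CXCL14-negative cells carried genes of vessel-wall mural cells. RGS5 was detected in 11 of the 20, with levels of 2.36 and 8.48 per 10000 in calves 2 and 3, and in none of the 129 CXCL14-positive cells, at least 51.1-fold lower there. HIGD1B, found in pericytes, was detected in 10 of the 20, at 6.48 and 28.8, and in none of the 129, at least 169-fold lower. KCNJ8, the pore of a potassium channel of mural cells, was detected in 8 of the 20 and in 5 of the 129, and fell by 3.83 (SE 0.63, edgeR adjusted p = 1.39e-07). At least 1 of these 3 genes was found in 12 of the 20 CXCL14-negative cells, 3 of 8 in calf 2 and 9 of 12 in calf 3, and in 5 of the 129 CXCL14-positive cells. None of the 12 carried PDGFRA. TINAGL1, RAMP1, GUCY1B1, RASL11A, ISYNA1 and CCL2 were also among the 10 genes with the largest difference in this direction. RAMP1, a partner of calcitonin-type receptors, had 2 UMIs against 25. Of the 10 genes with the largest difference in this direction, DESeq2 called 0 and the fit without the keratin limit 10. Of the 883 genes of the split, 46 had an unadjusted DESeq2 p under 0.05. That is close to the share this threshold passes where no gene differs.

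Type I collagen mRNA was found in these 20 cells too, COL1A1 in 19 and COL1A2 in 20. The rule asked for at least 3 COL3A1 UMIs in every cell, so collagen in both sets was partly fixed by the choice of cells. COL1A1 stood at 78.4 and 50.9 in the CXCL14-negative cells of calves 2 and 3 against 39.9 and 68.1 in the CXCL14-positive cells, a log2 difference of 0.02 ± 0.38 that did not pass, and COL1A2 likewise did not pass at -0.01 ± 0.38. The 2 calves went in opposite directions for COL1A1, and with 20 cells on 1 side these tests cannot show equal levels. DCN was higher in the CXCL14-positive cells by 1.18 ± 0.42 (edgeR adjusted p = 0.0441), a call that was lost with DESeq2 (adjusted p = 0.472), without the keratin limit (edgeR adjusted p = 0.0918) and in thinned cells (edgeR adjusted p = 0.0512). Smooth muscle myosin MYH11 and actin ACTG2 were at 0 in both sets. APOE stood at 38.9 and 38.5 in the CXCL14-negative against 17.7 and 11.4 in the CXCL14-positive cells, and fell by 1.17 (SE 0.29, edgeR adjusted p = 8.02e-04, and 0.0842 without the keratin limit), and CST3, cystatin C, fell by 2.12 (SE 0.34, edgeR adjusted p = 4.83e-08).

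Of the 20 CXCL14-negative cells, 13 met the rule with exactly 2 of the 5 genes, and no CXCL14-positive cell did. Of these 13 cells, 9 carried RGS5, HIGD1B or KCNJ8. The pair was LUM and FBLN1 in 8 of the 13 and PAM and LUM in 3. It was PAM and APOD in 1 and LUM and APOD in 1. With at least 3 of the 5 genes required, 136 fibroblasts were left, and the comparison of CXCL14-positive with CXCL14-negative cells called 1 gene. The 26 cells outside the fibroblasts that had fewer than 2 of the 5 genes held RGS5 at 2.32 and 7.66 and KCNJ8 at 11.6 and 8.56 UMIs per 10000 in calves 2 and 3. When the 17 fibroblasts with a UMI of RGS5, HIGD1B or KCNJ8 were left out, 305 genes were called against the MFAP5-positive cells and 663 against the ACTA2-positive cells, against 313 and 609 with them, and 271 and 586 of the first calls were also called.

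**Figure D5:**
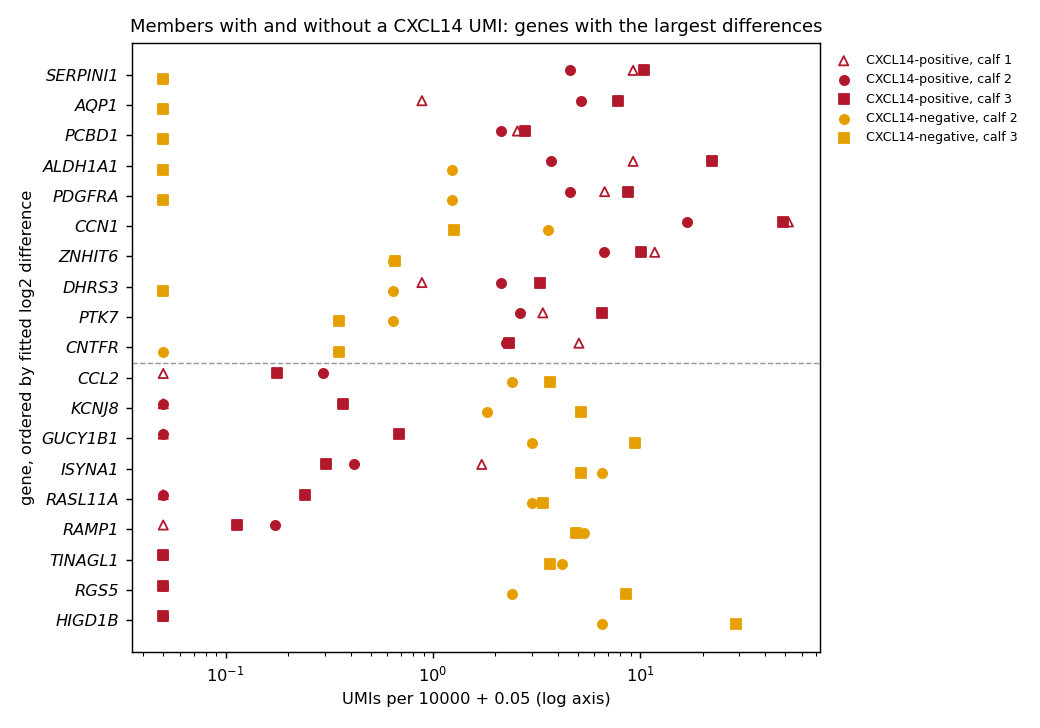
Level in UMIs per 10000, with 0.05 added, on a log axis, of the 10 genes with the largest positive (above the dashed line) and 9 of the 10 with the largest negative log2 difference between fibroblasts with (red) and without (orange) a CXCL14 UMI. Each point is the sum of the cells of 1 calf (open triangle calf 1, which had no CXCL14-negative cell, circle calf 2, square calf 3); HIGD1B, RGS5 and TINAGL1 have no red UMI, and SERPINI1, AQP1 and PCBD1 no orange UMI.

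The fibroblasts also differed between calves. Of 634 genes at 2 or more UMIs per 10000 on average in calves 2 and 3, 57 differed more than 2-fold between the fibroblasts of these calves, 8.99%, against 8.32% of 577 genes in MFAP5-positive and 5.84% of 634 in ACTA2-positive cells, with 0.5 added to each level. No test between calves was possible with 1 library each. The largest difference was in IFI27, an interferon-induced gene, at 0, 0.20 and 12.5 in calves 1, 2 and 3. IFI27 was also higher in calf 3 than in calf 2 in MFAP5-positive cells (15.4 against 3.48), ACTA2-positive cells (12.3 against 5.82) and endothelial cells (72.1 against 43.5). FKBP5, a gene induced by glucocorticoids, stood at 0.83, 0.20 and 5.41, and it too was higher in calf 3 than in calf 2 in MFAP5-positive (3.32 against 0.18), ACTA2-positive (2.79 against 0.46), epithelial and endothelial cells. VCAN, versican, stood at 8.34, 0.51 and 6.45. S100A12 and VCAM1, a cell adhesion molecule, went the other way, at 5.00, 6.68 and 1.52 and at 4.17, 7.59 and 1.89, and S100A12 was lower in calf 3 in those other 4 cell groups as well. These genes were picked for their size after the values were seen, and the calf, its library and its dissociation cannot be told apart.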

How the data were processed

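The rumen of 3 newborn calves was profiled with the 10x Genomics 3′ chemistry, 1 library per calf. The authors deposited UMI counts per gene and barcode from Cell Ranger 3.1.0 (version per the labels) on the bovine build ARS-UCD1.2, without normalization. Groups came from the sample titles. The 5 genes, the other limits, the gene lists and the tests were chosen with earlier results of these data known.

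Here, counts were summed per calf and cell group, and groups were compared with edgeR 4.0.16 in R 4.3.3 (TMM factors, filterByExpr, robust glmQLFit and glmQLFTest, calf as block because both sums come from the same animal), with Benjamini-Hochberg adjustment over all genes tested and a threshold of 0.05. A calf entered with at least 3 cells in both groups. The 26 genes used by the rule and its limits counted toward library sizes and were not tested. Calves are separate animals, yet with 2 calves the fit has few degrees of freedom. The SE of a log2 difference is its absolute value divided by the square root of the F statistic of the edgeR test. It is not a spread measured between the 2 calves. Text names, in each comparison, the 10 genes with the largest positive and negative log2 difference among those called, with the same sign in each calf and at least 0.5 UMIs per 10000 in the higher group, and 2 to 4 or more genes per list at that level. A total of 27 lists was used, and 14 of their symbols were not found in the files. Where 1 group had no UMI, the fold is a bound against 3 counts over that group; with 1 to 3 counts, the ratio of summed UMIs is given with an exact 95% counting interval. PCR duplicates are collapsed by UMI, so intervals cover the counting error of molecules only. Doublets were not removed in the main analysis; a score against simulated doublets, marking 6.02%, 9.63% and 9.32% of barcodes, served as an alternative. The edgeR fit was also run on simulated counts, and the outcome is not reported here. Alternatives were DESeq2 1.42.0, RLE factors, no filter, no block, other limits, thinned cells and left-out calves. Median log2 differences of lists were unchanged with bounded genes set at their bounds. A gene that met the rule for named genes is not reported here and is left out of the plots.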

Additional observations from a re-analysis of the deposited data

How the results depend on the processing

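The 3 comparisons rest on calves 2 and 3, and a fit without calf 2 or calf 3 leaves 1 calf and no residual degrees of freedom, so none was run; without replicate 1 the counts were the same, since calf 1 did not enter. Against MFAP5-positive cells, 313 genes were called with the calf as block. No replicate block gave 168, DESeq2 gave 82, cells thinned to 2000 UMIs gave 151, and no keratin limit with thinned cells gave 142. With no keratin limit 316 were called from 3 calves, and leaving out 1 calf gave between 84 (without calf 3) and 596 (without calf 1), with 119 without calf 2. Against ACTA2-positive cells, 609 became 329 with no replicate block, 147 with DESeq2, 276 with thinned cells and 393 with thinned cells and no keratin limit. Between CXCL14-positive and CXCL14-negative cells, 107 became 19 with no replicate block, 2 with DESeq2, 32 with thinned cells, 53 with no keratin limit, 2 with no keratin limit and thinned cells, and 1 with at least 3 of the 5 genes required. Thinning left out cells under 2000 UMIs; the cause of the other shifts was not tested. RLE factors, no filter, 20% mitochondrial UMIs and doublet removal left each count within 1.5 times, as did the other limits tried where they applied. Of the first calls, each gene tested in the fit without a block, with DESeq2 or with RLE factors kept its direction. Among the genes named by size, no direction was reversed in any fit; 15 of 288 values lost their call against MFAP5-positive cells, 7 of 214 against ACTA2-positive cells and 54 of 189 in the CXCL14 split.

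The share of kept barcodes, 0.489%, became 0.986% with a keratin limit of 50 per 10000 and 1.18% with none. It lay between 0.309% and 0.683% without 1 calf. The rule applied to cells thinned to 2000 UMIs found 52 fibroblasts, against 149 in the main count, and a mean share of 0.188%. Only barcodes with at least 2000 UMIs entered there, while the median of the fibroblasts was 1906. The shift lay within 1 SD between calves (0.374), an SD that includes calf 1 with its 5 cells. The keratin limits, the fits without RGS5, HIGD1B or KCNJ8 cells and the fit with calf 1 included were chosen after the data were seen.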

Other observations

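Genes of the insulin-like growth factor system, of proteolysis and of nonfibrillar collagen also differed between PAM CXCL14 LUM fibroblasts and MFAP5-positive cells of calves 2 and 3. Among 6 tested IGF binding proteins and receptors of that list, IGFBP3, which carries IGF in tissue and blood, stood at 7.18 and 9.29 UMIs per 10000 against 1.47 and 1.50, higher by 2.45 ± 0.41 (edgeR adjusted p = 4.76e-08), and IGFBP4 was higher by 1.34 ± 0.37. IGFBP6 and IGF2R, the receptor that removes IGF2, fell by 2.02 and 1.72. Without the keratin limit the list had 0 members higher and 2 lower of 7 tested, with IGFBP3 at a log2 difference of 1.11 (edgeR adjusted p = 0.167) and IGFBP4 at 0.93 (edgeR adjusted p = 0.117).

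Among 10 tested proteases and inhibitors, MMP14, a membrane collagenase, was higher by 1.43 ± 0.39 (edgeR adjusted p = 0.002), a call lost without the keratin limit (edgeR adjusted p = 0.181), and 4 members were lower, the inhibitors SERPINF1 and TIMP2 among them, by 2.17 and 1.75. COL18A1, a basement membrane collagen, was higher by 1.37 ± 0.45, a call also lost there (edgeR adjusted p = 0.321), while COL14A1, which coats collagen fibrils, fell by 2.98. PTN, pleiotrophin, a heparin-binding growth factor, stood at 0.40 and 1.73 against 10.1 and 14.8 and fell by 3.56 (SE 0.39, edgeR adjusted p = 1.19e-17).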
